A study of Mus musculus with 5 samples.

Results

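The microRNA miR-142 was followed through its 2 mature arms, mmu-miR-142a-3p and mmu-miR-142a-5p, in Ago HITS-CLIP data from mouse liver, a method in which ultraviolet light fixes RNA to the Argonaute (Ago) proteins before the complexes are pulled down and their RNA is sequenced. The members were found by name, as the entries of the deposited interaction tables that list either arm as the miRNA of a seed match in an Ago-bound cluster of reads. Of 3254259 entries over 5 tables, 7349 belonged to miR-142, with 5480 for mmu-miR-142a-3p and 1869 for mmu-miR-142a-5p (miR-142a-3p and miR-142a-5p from here on), out of 995 miRNAs listed. The livers came from mice that the labels give as C57BL/6 and the methods as C57BL/6J, with no allele or treatment named in the labels, as embryos (e12.5, e15.5 and e18.5), 7 days after birth (P7) and as adults, and values set side by side without stages run in this order. Ago2 was precipitated at each stage, and Ago1 antibody was added only for P7 and adult liver, so that antibody and age after birth cannot be told apart. Each stage has 1 table, called a library here, and no labelled replicate, so that differences between stages are differences between these libraries. The methods speak of 2 biological replicates, and the 3 embryonic tables each hold 2 lists that the labels do not describe. These lists were joined, and their separate values are given for abundance and, in part, in the closing section.

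A miRNA hairpin is cut into a duplex of 2 strands, the 5p and the 3p arm, and the strand kept by Ago guides it to mRNAs that pair with the seed near the 5′ end of the miRNA. The gene of miR-142 is active in nearly all blood cell lineages and hardly at all outside them, and the liver of the mouse fetus is a blood-forming organ before blood formation moves to the bone marrow. In whole liver, fewer blood cells and less of a miRNA per cell cannot be told apart.

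Both arms come from chromosome 11 (GRCm38), miR-142a-5p from chr11:87756867-87756887 and miR-142a-3p from chr11:87756903-87756925 on the plus strand. Their sequences, from RefSeq, are shown because every site below is defined by them, with the seed, bases 2 to 8, in capitals.
miR-142a-3p: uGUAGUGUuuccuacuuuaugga
miR-142a-5p: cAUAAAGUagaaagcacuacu
The seeds differ from each other, and no other miRNA listed in the tables shares bases 2 to 7 of either. A site that matches bases 2 to 7 is a 6mer. A 7mer-m8 also matches base 8, a 7mer-A1 has an A opposite base 1, and an 8mer has both. The last 3 kinds are called longer sites or sites of at least 7 matched bases, with the A counted, which pairs with the u at base 1 of miR-142a-3p but not with the c at base 1 of miR-142a-5p. The sites that recurred most often or held the most reads show these forms. Capitals mark the matched bases and any A opposite base 1, with the 3′ end of each sequence lying opposite base 1 of the miRNA.
Suco 3′UTR, 8mer for miR-142a-3p: tttttgaagctgcaaACACTACA
Ankrd11 3′UTR, 8mer for miR-142a-3p: agaaggtaacttgaaACACTACA
Kmt2a 3′UTR, 7mer-m8 for miR-142a-3p: tgagcaagttcaatgACACTACt
Slc40a1 coding sequence, 7mer-A1 for miR-142a-3p: tgggctttgactgtatCACTACA
Trib1 coding sequence, 7mer-m8 for miR-142a-3p: ggaattccccattaaACACTACc
Tnfaip2, 6mer for miR-142a-3p: ccctggaggaaatcatCACTACt
Ulk1 3′UTR, 7mer-m8 for miR-142a-5p: aagtcaccggagcACTTTATg
Ccdc71l 3′UTR, 7mer-m8 for miR-142a-5p: ccccctttggtgcACTTTATg
Dram2 3′UTR, 7mer-m8 for miR-142a-5p: tgtagtgtttgctACTTTATc

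Before birth miR-142a-3p was the most abundant miRNA on Ago. The name of an interaction holds a whole number beside its miRNA, which was read here as that miRNA's count of reads, and abundance is its share of these numbers summed over all miRNAs of a library. mmu-miR-142a-3p made up 32.2%, 37.1% and 23.9% in the embryonic libraries, 8.88% at P7 and 4.34% in the adult, ranking 1, 1, 1, 4 and 6 among 585 to 745 miRNAs. Without the 9 other miRNAs that were among the 5 most abundant in any library, its shares were 52.6%, 53.1%, 40.6%, 16.6% and 10.6%, in the same order. It was thus highest at e15.5 and lower in both libraries after birth than in any before it. The lists of the embryonic tables differed, most at e15.5 with 21.6% and 42.2%, and less at e18.5 with 21.7% and 30.2% and at e12.5 with 32.2% in each, so that the order of the 3 embryonic libraries is not settled. The lowest of these lists still stood above P7 and adult liver. On the log2 scale the level fell by 2.89 from e12.5 to adult liver. Of 231 miRNAs compared, 48.5% fell by at least 4-fold between these libraries and the median changed by -1.87, and the fall of miR-142a-3p came at place 92.

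miR-142a-5p followed another course. mmu-miR-142a-5p made up 0.422%, 0.450% and 0.455% before birth, 0.472% at P7 and 0.0783% in the adult, at ranks 23, 30, 30, 37 and 62. It stayed within a narrow band in the first 4 libraries, narrower than the lists of e18.5 were apart (0.413% and 0.579%), and was low only in the adult library. From e12.5 to adult liver it fell by 2.43 on the log2 scale, at place 103 of the 231 miRNAs. The number of miR-142a-3p exceeded that of miR-142a-5p 76.3-fold, 82.6-fold and 52.5-fold before birth, 18.8-fold at P7 and 55.3-fold in the adult. The ratio was lowest at P7, outside the range that the lists of e15.5 spanned (40.8 and 99.8), and no replicate of P7 shows how far it varies.

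**Figure D1:**
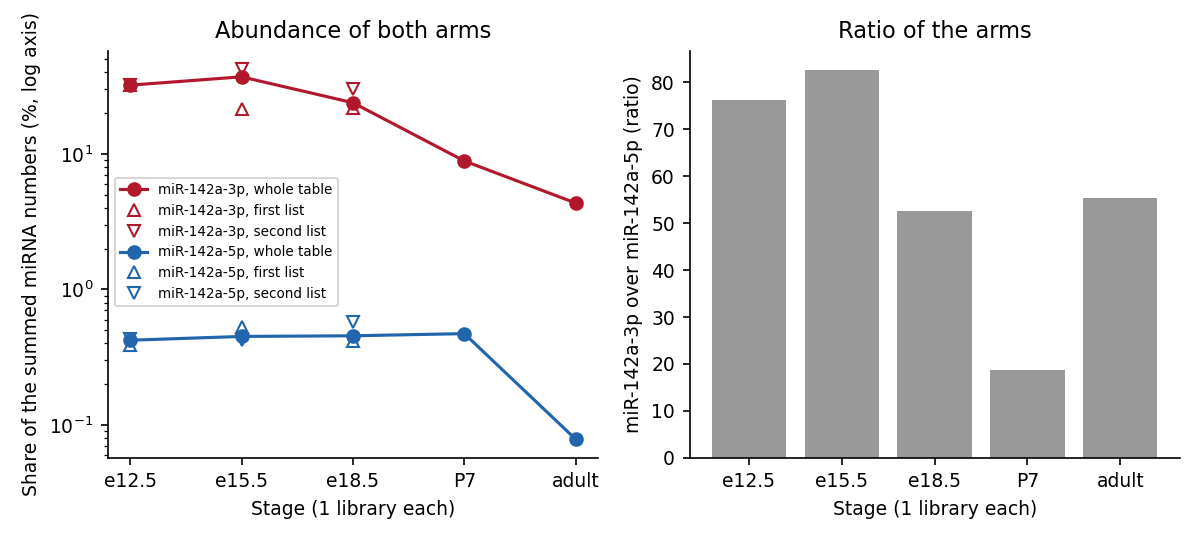
Share of the summed miRNA numbers of a library (percent, log axis) for miR-142a-3p and miR-142a-5p by stage, with open triangles for the 2 lists of each embryonic table, and at right the ratio of miR-142a-3p to miR-142a-5p. miR-142a-3p falls from 32.2% to 4.34% with most of the fall after e18.5, miR-142a-5p falls only in adult liver, and the ratio is lowest at P7 (18.8).

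The miRNAs whose profiles were most like those of the arms also differed. Over the 5 libraries and 108 miRNAs that reached 1000 per 1000000 in any of them, miR-142a-3p ran closest to miR-18a-5p, by Pearson's r of log2 reads per 1000000, followed by miR-210-3p, miR-19a-3p, miR-185-5p and miR-17-5p (r of 0.98 to 0.99 after the first). miR-18a, miR-19a and miR-17 are encoded together in the miR-17-92 cluster, which is active in dividing cells. miR-142a-5p ran closest to miR-434-3p, miR-541-5p, miR-434-5p, miR-127-3p and miR-379-5p (r of at least 0.99), which all lie in the imprinted Dlk1-Dio3 region and were also low only in adult liver. Their falls were larger, with miR-434-3p going from 0.0604% at e12.5 to 2.62e-04% and miR-541-5p from 0.402% to 0.00297%, where miR-142a-5p went from 0.422% to 0.0783%. The arms correlated with each other at r = 0.77. With 5 points that share their libraries, these values describe the profiles and were not tested.

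Blood and liver genes among the Ago-bound mRNAs moved in the same libraries. Cluster reads of the 16 erythroid marker genes found, per 1000000 of the summed cluster reads, were 67616, 91551, 96832, 34652 and 1635 from e12.5 to adult liver, and 8 of the 16, among them Klf1 and Slc4a1, had no cluster in the adult table, against 2959 of the 11824 genes with an mRNA entry at e12.5. The 20 leukocyte markers summed to 143, 378, 1251, 341 and 96.2, with 12 listed in adult liver and the granulocyte genes Mpo, Elane, Ctsg, S100a8 and S100a9 among the missing. The macrophage and antigen-presenting genes Cd68, Cd74 and Emr1 went the other way, unlisted at e12.5 and e15.5 and listed from e18.5 on, the adult table included. The 8 megakaryocyte markers ran from 98.7 at e12.5 to a highest value of 268 at P7 and 31.0 in adult liver. The 25 hepatocyte markers rose from 1866 to 16256 per 1000000, and between 20 and 25 of them were listed in each library, so the labelled tissue showed its own markers at each stage. The endothelial markers ranged from 24.8 to 256 and the stellate and biliary markers from 28.5 to 151. The sums of all 3 blood lists were thus lowest in adult liver, as was miR-142a-3p, and their highest values came at e18.5 (erythroid and leukocyte) and P7 (megakaryocyte). The leukocyte change from e12.5 to adult liver, -0.57 on the log2 scale, was 0.64 when clusters at miRNA genes were left out of the total. The part of cell composition in the changes of miR-142 was not tested.

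As listed, sites of miR-142a-3p lay mainly in mRNA and those of miR-142a-5p mainly outside it. The latter holds only with the near copies of the other arm, described below, included. miR-142a-3p had 1684, 839, 787, 964 and 532 distinct sites from e12.5 to adult liver, and miR-142a-5p had 629, 340, 255, 253 and 148. The tables hold 208193, 81121, 76948, 124781 and 81194 clusters, so e15.5 and adult liver differed in sites of both arms at nearly equal size. At e12.5 the coding sequence (CDS) held 40.1% of the miR-142a-3p sites (95% Wilson interval 37.8 to 42.5), the 3′UTR 25.2%, intergenic sequence 19.2% and introns 8.43%. For these shares a site listed under several regions was put in 1 of them, 3′UTR before CDS, and 747 of the 1684 sites were listed as CDS with or without another region. In adult liver the CDS share was 52.1% (47.8 to 56.3) against 48.7% for the sites of all other miRNAs, and at e12.5 these other sites stood at 31.3%. For miR-142a-5p, intergenic sequence held 40.1% (36.3 to 43.9) and introns 18.0% at e12.5, against 20.6% and 17.1% for other miRNAs, and the CDS held only 15.4%. The intergenic share of miR-142a-5p stayed between 32.0% and 44.7% at the later stages, above the 11.5% to 20.8% of other miRNAs in each library. All intervals given here cover counting error only.

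To relate the sites to the number of clusters in each table, the share of 3′UTR or CDS clusters that held a site was compared. For miR-142a-3p the 3′UTR share was 1.07%, 1.21%, 1.36%, 0.861% and 0.672% from e12.5 to adult liver. The CDS share ran in parallel, at 1.28%, 1.52%, 1.44%, 0.925% and 0.777%. Both were higher in the 3 embryonic libraries than in the 2 libraries after birth. The share of miR-142a-5p in 3′UTR clusters was 0.350%, 0.434%, 0.378%, 0.243% and 0.151%, and in CDS clusters 0.189%, 0.177%, 0.130%, 0.0896% and 0.0667%. Again the adult library was lowest in each region.

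Each later library was set against e12.5 with a two-sided Fisher's exact test, 16 comparisons in all with Benjamini-Hochberg adjustment, which compares the libraries and not the stages. Of these 10 passed the threshold of 0.05, 8 of them lower than e12.5 and 2 higher. In adult liver the log2 odds ratio was -0.68 (95% interval -0.99 to -0.38, adjusted exact p = 2.77e-05) for miR-142a-3p in 3′UTRs and -0.73 (-0.92 to -0.53, adjusted exact p = 5.97e-13) in CDS. For miR-142a-5p it was -1.22 (-1.84 to -0.59, adjusted exact p = 1.03e-04) in 3′UTRs and -1.50 (-2.12 to -0.88, adjusted exact p = 1.31e-06) in CDS. The P7 library was lower for both arms in both regions, with log2 odds ratios between -0.32 and -1.07, though its calls in 3′UTRs were lost under some alternatives. The higher shares were those of miR-142a-3p at e18.5 in 3′UTRs (0.34, adjusted exact p = 0.0104) and at e15.5 in CDS (0.25, adjusted exact p = 0.01000), and both turned to lower when genes with a site were counted in place of clusters. Both arms showed a fall of at least 1.5-fold from e12.5 to adult liver in both regions. The same was found for 37.0% of 625 seeds in 3′UTRs and 33.7% of 659 in CDS. Among these seeds the falls of miR-142a-3p came at places 217 and 213, and those of miR-142a-5p at 198 and 203. At e12.5 745 miRNAs were listed and in adult liver 585, and a seed with no entry in adult liver counted as fallen. Such seeds were not set apart, so these shares and places do not show how usual the falls were. For comparison, the share of 3′UTR clusters with a site rose from 1.01% to 3.66% for the hepatocyte miRNA miR-122-5p and from 0.768% to 2.29% for let-7c-5p. The erythroid miRNA miR-451a went from 0.730% to 0.151%, miR-144-3p from 2.25% to 1.82%, and the myeloid miR-223-3p from 1.05% to 0.930%.

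The fall of miR-142a-3p was in its longer sites. Sites of at least 7 matched bases were in 0.811% of 3′UTR clusters at e12.5 (0.727 to 0.905) and then 0.862%, 0.978% and 0.615%, and in 0.333% in adult liver (0.255 to 0.435). Its 6mers were in 0.264% (0.218 to 0.319), 0.346%, 0.378%, 0.247% and 0.339% (0.260 to 0.442) of the same clusters. Longer sites thus outnumbered 6mers in each of the first 4 libraries and were level with them in the adult library, where 53 clusters had a longer site and 54 a 6mer. The 8mers alone went from 0.243% to 0.0754%, a 3.23-fold difference. In CDS clusters the longer sites fell from 0.781% to 0.326% while the 6mers stood at 0.499% and 0.451%.

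This split was compared over all seeds with at least 50 clusters of each kind in the 2 libraries together. Seeds with no entry in either the e12.5 or the adult library were kept, and their difference reflects the counts of the other library alone. The log2 change of the longer sites minus that of the 6mers, adult over e12.5, was -1.64 for miR-142a-3p in 3′UTRs, place 2 from the most negative of 524 seeds, whose median was 0.05. In CDS it was -1.12, place 6 of 615 seeds with a median of -0.06. The longer sites had fallen at least 1.5-fold more than the 6mers for 8.21% of seeds in 3′UTRs and 7.97% in CDS. The longer sites by themselves fell at least 1.5-fold for 40.8% of 544 seeds and 36.4% of 621 seeds, with miR-142a-3p at places 172 and 187. Seeds with no entry in adult liver counted as fallen here, so these values do not show how usual its fall was. For miR-142a-5p the longer sites fell from 0.200% to 0.0691% of 3′UTR clusters and the 6mers from 0.150% to 0.0817%. Its differences of -0.65 (place 33) and -0.47 (place 66) were smaller and rest on 11 and 12 longer sites in adult liver. All these values are a description of 2 libraries.

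**Figure D2:**
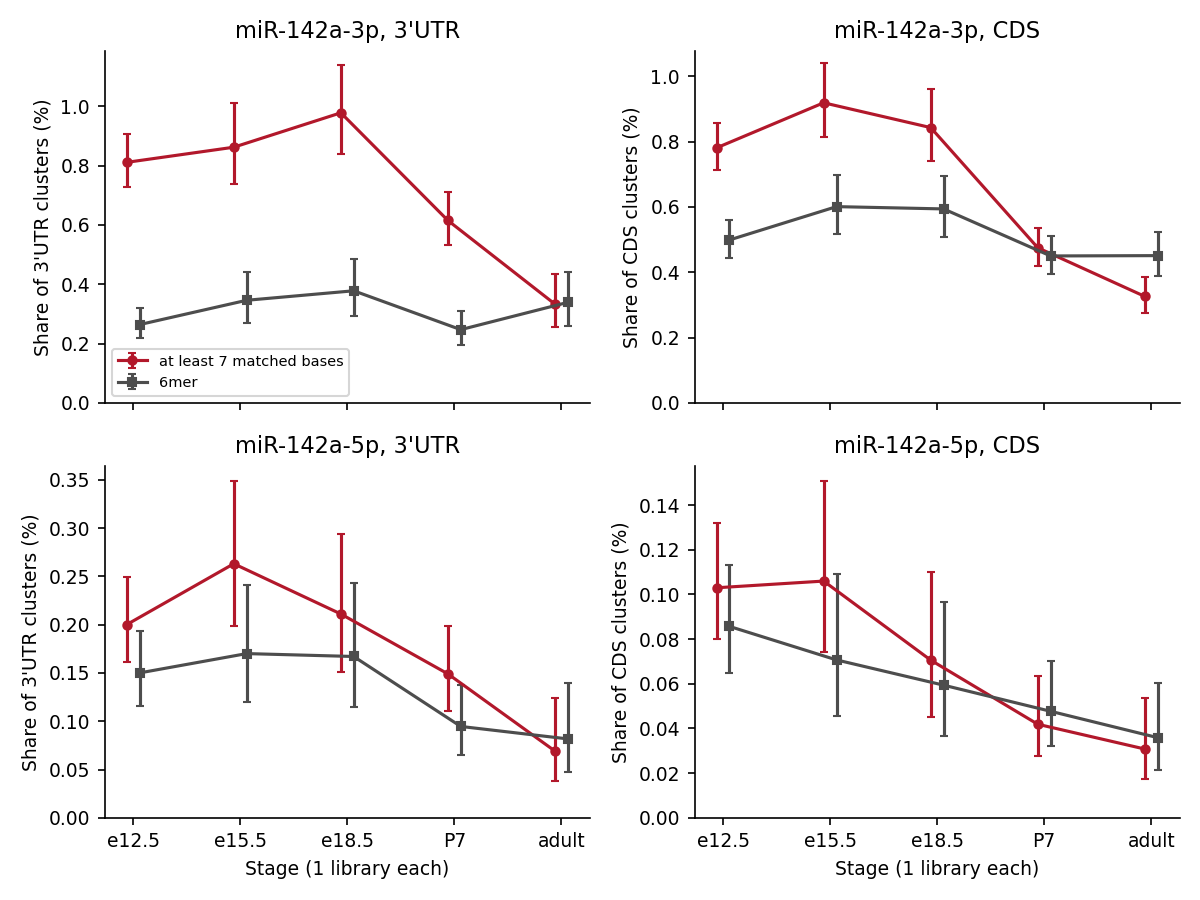
Share of 3′UTR (left) and CDS (right) clusters with a site (percent) of miR-142a-3p (top) and miR-142a-5p (bottom) by stage, separately for sites of at least 7 matched bases and for 6mers, with 95% Wilson intervals that cover counting error only. The longer sites of miR-142a-3p drop after e18.5, in 3′UTRs from 0.978% to 0.333%, while its 6mers end near where they began (0.264% and 0.339%).

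**Figure D3:**
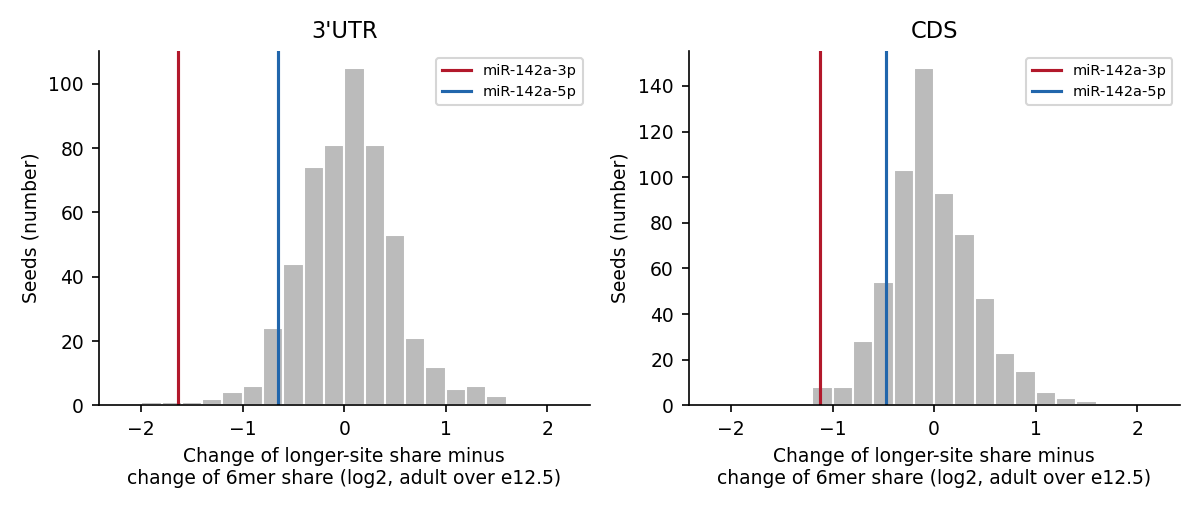
Number of seeds by the log2 change, adult over e12.5, of the cluster share of sites with at least 7 matched bases minus that of the share with a 6mer, in 3′UTRs (524 seeds) and CDS (615 seeds). Lines mark miR-142a-3p at -1.64 and -1.12, in the left tail of both panels, and miR-142a-5p at -0.65 and -0.47. Seeds with entries in only a single library are included.

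As a result the make-up of the miR-142a-3p sites changed. 6mers were 24.5% of its 3′UTR sites at e12.5 (20.7 to 28.8), 28.6%, 27.9% and 28.6% in the next 3 libraries and 50.5% (41.1 to 59.8) in adult liver, where other miRNAs stood at 51.1%. At e12.5 other miRNAs stood at 52.6%, and 10 of 717 miRNAs had a lower share of 6mers than miR-142a-3p. Its 8mers were 22.6%, 22.7%, 20.1%, 22.0% and 11.2% of 3′UTR sites, against 8.38% to 10.3% for all other miRNAs. In adult liver the 8mer interval (6.53 to 18.6) included the 9.58% of the others. In CDS the share of 6mers rose from 39.0% at e12.5 to 48.7% at P7 and 58.1% in adult liver. For miR-142a-5p the 6mers were 42.8% of 3′UTR sites at e12.5, and 7mer-m8 sites (34.1%) outnumbered 7mer-A1 sites (11.6%) about as they did in CDS (39.1% and 9.09%).

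Clusters with a miR-142a-3p site held more reads than the others of their region. The highest read number of a cluster was taken, added over the 2 lists in the embryonic libraries, so that its level cannot be compared across birth. Its median for 3′UTR clusters with a site was 57, 49, 56, 23 and 30 from e12.5 to adult liver. For clusters without one it was 34, 37, 26, 15 and 22. The ratio of these medians was highest at e18.5 (2.15), and ranged from 1.32 to 1.68 in the other libraries. In CDS it ranged from 1.33 to 2.70. For miR-142a-5p the ratio lay between 1.11 and 1.19 in 3′UTRs, near 1 at all stages. In CDS it was 0.348 at e18.5, where 35 clusters had a site, and between 1.01 and 1.67 elsewhere. Whether the median with a site rose or fell from e12.5 to adult liver depended on the scaling of the reads for miR-142a-3p in both regions and for miR-142a-5p in 3′UTRs, as detailed in the closing section.

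The 3′UTR clusters with a miR-142a-3p site carried a median of 4 to 6 seeds per cluster. miR-142a-3p was the most abundant miRNA with a match in all 424, 220 and 219 such clusters of the embryonic libraries, in 94.1% (90.5 to 96.4) at P7 and in 82.2% (73.9 to 88.3) in adult liver. In the embryonic libraries, where it ranked first of all miRNAs, its rank alone fixes this. After birth let-7c-5p, miR-122-5p and miR-194-5p were the more abundant miRNAs that most often shared the cluster. miR-142a-5p was the most abundant match in 58.7% of its 3′UTR clusters at e12.5 and 50% in adult liver.

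By the conservation score of the tables, which runs from 0 to 1, 55.2% (50.4 to 59.9) of the 3′UTR sites of miR-142a-3p scored at least 0.5 at e12.5, against 46.8% for other miRNAs. The values were 59.1%, 57.1%, 48.2% and 49.5% at the later stages, against 52.7%, 49.3%, 44.0% and 46.3%. miR-142a-3p lay above the other miRNAs in each library, though its interval included their value at e15.5, P7 and adult. Among 8mers alone it lay below them in the first 4 libraries, with 54.2%, 52.0%, 47.7% and 48.2% against 56.3%, 63.6%, 61.7% and 54.1%, and in adult liver at 58.3% of 12 sites against 57.6%. For miR-142a-5p the shares were 60.9% (52.5 to 68.6), 60.8%, 60.7%, 62.5% and 58.3%. In CDS, where the protein code itself is conserved, 82.7% to 87.9% of miR-142a-3p sites and 92.3% to 98.0% of miR-142a-5p sites scored at least 0.5, against 80.1% to 85.7% for other miRNAs. Intergenic sites of miR-142a-5p scored that high in 16.3% at e12.5 and 6.90% in adult liver, below the 24.3% and 26.7% of other miRNAs.

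Many of the miR-142a-5p sites outside mRNA resembled the other arm of the hairpin. The arms pair with each other in the hairpin, so miR-142a-3p itself holds a 7mer-m8 for miR-142a-5p, at chr11:87756916-87756922. The read number there was 8186952, 3736657, 1850042, 1062583 and 988453 from e12.5 to adult liver, close to the number of miR-142a-3p in each library (8226778, 3750901, 1860873, 1069724 and 993616). The genome around every site was therefore compared with the opposite arm, and a site within 5 edits of it was counted as a near copy. As miR-142a-3p holds the seed match itself, 6 or 7 of its bases are the same as at any miR-142a-5p site from the outset. Near copies were 197 of 629, 122 of 340, 103 of 255, 77 of 253 and 60 of 148 sites of miR-142a-5p, that is 31.3%, 35.9%, 40.4%, 30.4% and 40.5%. The limit was set after the data were seen and decides these values, which were 4.13%, 6.76%, 8.63%, 7.91% and 10.1% within 3 edits and between 44.7% and 56.2% within 7. In each library 2 of them lay at the miR-142 hairpin itself, which leaves 195, 120, 101, 75 and 58 elsewhere. With the hairpins included for every arm, this share was the highest share of all 387 to 475 arms whose opposite arm is listed, and it was 0.383% to 0.474% over all other arms together. For miR-142a-3p it was 1.69% to 2.98%.

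The near copies lay almost wholly outside mRNA, with 189 of 197 in intergenic or intronic sequence at e12.5 and 57 of 60 in adult liver. Between 1 and 5 of them per library lay in mRNA, against 239 of all 629 miR-142a-5p sites at e12.5 and 53 of 148 in adult liver. With the near copies left out, the remaining sites lay mainly in mRNA in each library. The near copies recurred, since 38 of the 228 distinct ones outside the hairpin were in all 5 libraries and 91 in 1 library. They also held most of the reads of this arm: outside miRNA genes, their read numbers made up 85.0%, 83.6%, 86.7%, 81.2% and 66.4% of those summed over all miR-142a-5p sites. Of the near copies in all 5 libraries, 4 with high scaled reads summed over the libraries are shown. They can be read against miR-142a-3p above, letter by letter apart from t for u, with the match to the miR-142a-5p seed in capitals.
chr3:118158435-118158441, intergenic, 2 edits: tgtagttttcccACTTTATg
chr7:123941278-123941284, intergenic, 2 edits: tgtagtgtttctcACTTTATg
chr15:33887506-33887511, intergenic, 4 edits: tgtagtgtttcCTTTATg
chr1:193791851-193791856, intergenic, 2 edits: ctgtagtttttcctCTTTATg
The site on chromosome 3 had read numbers of 22685, 10720, 5157, 1547 and 88 from e12.5 to adult liver, and that on chromosome 7 had 18828, 7591, 4188, 2236 and 1372. These unscaled numbers fell from library to library, as the number of miR-142a-3p did, in libraries of unequal depth. Per 1000000 of summed cluster reads, the site on chromosome 3 had 506, 649, 396, 93.8 and 3.54 and that on chromosome 7 had 420, 460, 322, 136 and 55.1, so both were highest at e15.5. Whether such reads are RNA fragments from these places bound through miR-142a-5p or copies of miR-142a-3p placed elsewhere in the genome was not tested. Leaving out the near copies changed none of the calls on site shares, since so few lie in mRNA.

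**Figure D4:**
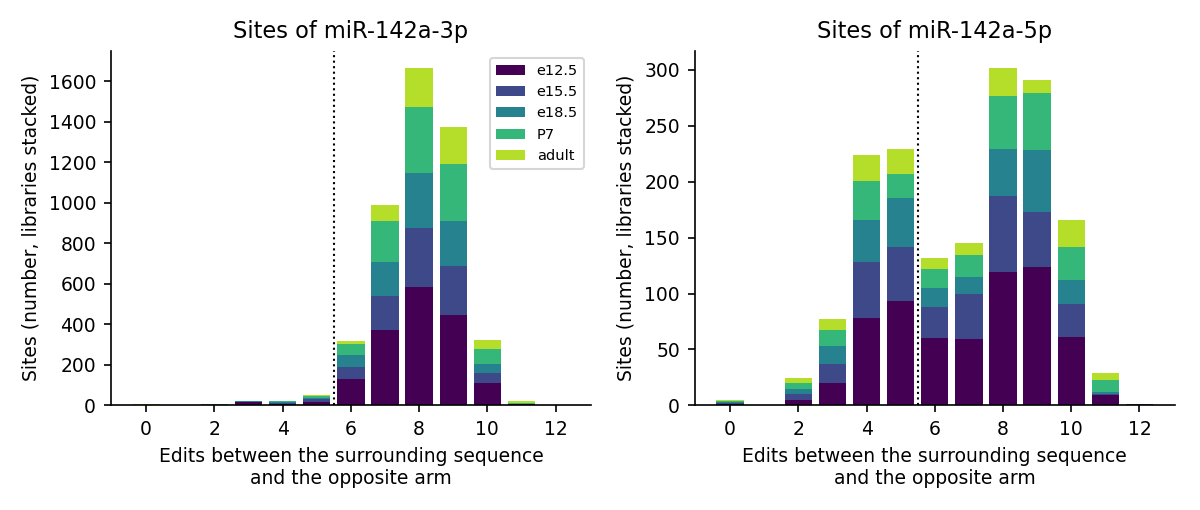
Number of sites by the fewest edits between the surrounding genome sequence and the opposite arm, for miR-142a-3p (left) and miR-142a-5p (right), stacked by library, with a dotted line at the limit of 5 edits. miR-142a-3p has 1 peak at 8 edits, while miR-142a-5p has a further peak at 4 and 5 edits.

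Over the 5 libraries 636 genes had a 3′UTR site of miR-142a-3p (5.75% of the 11065 genes with any 3′UTR entry) and 1149 had a CDS site (8.45% of 13595). For miR-142a-5p these were 267 genes (2.41%) and 193 genes (1.42%). Of the 3′UTR genes of miR-142a-3p, 304 (47.8%) were in at least 2 libraries and 17 in all 5. For miR-142a-5p, 64 of 267 (24.0%) were in at least 2 and 3 in all 5. The 103 genes of the adult library shared 44 genes with the 401 of e12.5, which is 42.7% of the adult genes and 11% of the e12.5 genes. At e15.5, 151 of 213 genes (70.9%) were also in the larger e12.5 set, and at P7 138 of 247 (55.9%). Among all genes with any 3′UTR entry, for whatever miRNA, 78.1% were in at least 2 libraries, and 80.5% of the adult, 89.3% of the e15.5 and 78.4% of the P7 genes were also in the e12.5 table. For single miRNAs with at least 20 such genes the medians were lower, at 21.2% in at least 2 libraries over 983 other miRNAs, of which 9 reached the share of miR-142a-3p and 422 that of miR-142a-5p. The median share also found at e12.5 was 23.6% for the adult, 47.8% for e15.5 and 27.6% for P7. A miRNA not listed in at least 2 libraries, or not at e12.5, had no shared genes by listing alone, which can lower these medians. As recurrence also depends on how many clusters a library has, these shares are given without a test.

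Genes were named by the number of libraries with a site and then by reads, so the following values describe and were not tested. They are the highest read number at the site per 1000000 of summed cluster reads, from e12.5 to adult liver. Tnfaip2, a gene induced by tumour necrosis factor, had the most reads of the 3′UTR sites of miR-142a-3p in each embryonic library, at 105, 65.5, 77.5, 7.09 and 0.764, on a 6mer at chr12:111450748-111450753 that the tables list as both 3′UTR and CDS. Suco, a membrane protein needed for bone formation, had a conserved 8mer at chr1:161817903-161817909 with 59.9, 19.6, 47.4, 4.49 and 0.522. Ankrd11, a chromatin regulator, had a conserved 8mer at chr8:122883518-122883524 with 23.5, 33.4, 29.1, 20.1 and 0.844, and 2 other listed sites have nearly the same surrounding sequence, 1 of them with an equal read number. In all 3 genes adult liver was far below the rest. Kmt2a, the histone methyltransferase required by blood stem cells, had 13.8, 43.9, 32.9, 11.6 and 1.08 on a conserved 7mer-m8 at chr9:44806709-44806715. Rreb1, a zinc finger transcription factor, peaked later, with 5.71, 2.06, 41.0, 24.8 and 4.94. The antioxidant enzyme Gpx1 had 13, 22.3, 7.61, 1.76 and 2.65 on a 6mer with a conservation score of 0. Cyb5a, an electron carrier of the endoplasmic reticulum, had 11.4, 36.2, 8.84, 0.303 and 0.241, where the last 2 values are 5 and 6 reads. Mpdu1, which serves the use of dolichol-linked sugars, Cyth2, an exchange factor for ARF proteins, and the splicing factor Hnrnpl completed the 10 and were at or below 0.964 in adult liver. Of the 10, 8 had their lowest value in adult liver, and Gpx1 and Rreb1 had it at P7 and e15.5. In unscaled reads 7 were lowest in adult liver, since Cyb5a had 1 read fewer at P7, and 7 were also lowest there with clusters at miRNA genes left out of the total. Of all 17 genes with a 3′UTR site of miR-142a-3p in the 5 libraries, 11 were lowest in adult liver as scaled here and 7 in each of these other ways. For the other miRNAs, 39.2% of 4365 pairs of a miRNA and a gene in all libraries were lowest there, and 33.1% unscaled and 23.7% without clusters at miRNA genes.

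**Figure D5:**
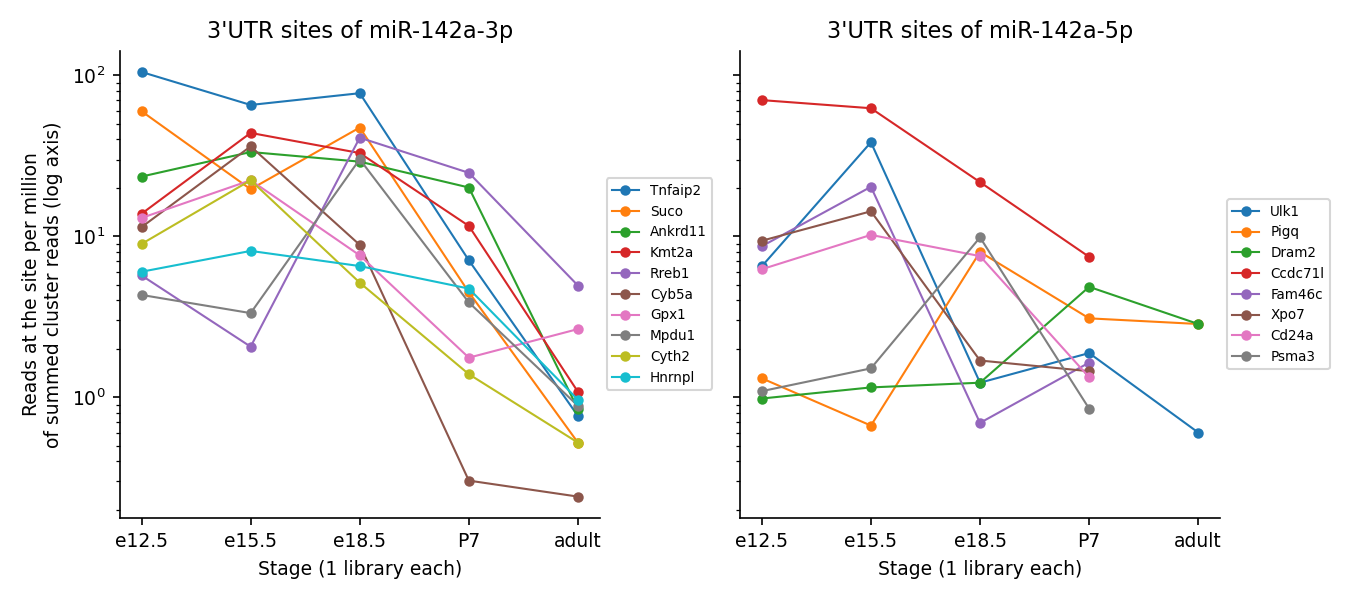
Highest read number at the site per 1000000 of summed cluster reads (log axis) by stage for the 10 genes of miR-142a-3p (left) and 8 genes of miR-142a-5p (right) whose 3′UTR sites were in the most libraries. A missing point means that no cluster with the site is listed. Tnfaip2 runs from 105 at e12.5 to 0.764 in adult liver, and most lines end low in adult liver.

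Among the coding sites of miR-142a-3p listed in all 5 libraries, those with the highest mean of these reads were in Fth1, Tnfaip2, Cited2, Slc40a1, Supt16 and Trib1. Fth1, the heavy chain of the iron store ferritin, had 90.0, 92.6, 61.6, 17.7 and 3.17 on a 6mer, and the pseudogene Gm6977 carries a look-alike site with an equal read number, so the reads may be shared. Slc40a1, the iron exporter ferroportin, had 20.9, 18.2, 80.2, 73.7 and 28.6 on a conserved 7mer-A1 at chr1:45911305-45911311. Cited2, a partner of the coactivators CBP and p300, had 78.5, 31.9, 110, 24.8 and 1.57, and Supt16, a subunit of the histone chaperone FACT, 82.3, 66.5, 29.4, 9.09 and 0.844. Trib1, a pseudokinase that directs protein degradation, ran the other way, with 4.57, 5.81, 16.9, 69.9 and 39.5 on a conserved 7mer-m8 at chr15:59651493-59651499. Slc40a1 and Trib1 thus kept reads in adult liver, whereas Fth1, Cited2, Supt16 and Tnfaip2 had their lowest value there. In adult liver the 3′UTR sites with the most reads were those of Slc25a51, a mitochondrial carrier of NAD, at 14.3 against 0.267 at e12.5, the zinc finger gene Zfp668 at 6.31, and Apoa5, a regulator of blood triglycerides, at 6.23. All 3 are 7mer-A1 sites with conservation scores of at most 0.0470, and Apoa5 was listed in adult liver only. Kpna2, an importin, came at place 3 at e12.5 with 36.8, but its site is a near copy of miR-142a-5p with 3 look-alikes, 2 of them with an equal read number.

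For miR-142a-5p, 3 genes had a 3′UTR site in all libraries. Ulk1, the kinase that starts autophagy, had a conserved 7mer-m8 at chr5:110785678-110785684 with 6.51, 38.4, 1.23, 1.88 and 0.603. Pigq, an enzyme of the GPI anchor, had 1.31, 0.666, 7.99, 3.09 and 2.85 on a 6mer that was hardly conserved (0.00400). Dram2, a lysosomal protein linked with autophagy, had 0.981, 1.15, 1.23, 4.85 and 2.85, but the sequence around its site, shown above, is a near copy of miR-142a-3p. Ulk1 was highest at e15.5, Pigq at e18.5 and Dram2 at P7, so these genes shared no course. Ccdc71l held the most reads of the 3′UTR sites of miR-142a-5p in each embryonic library, with 70.2, 62.5, 21.7 and 7.45 up to P7 and no listed site in adult liver. Fam46c, a poly(A) polymerase, Xpo7, a nuclear exporter abundant in erythroblasts, the surface protein Cd24a and the proteasome subunit Psma3 were likewise listed at each stage but the adult. Psma3 is also listed as CDS and has 2 look-alike sites. Among the CDS sites, Fbxo30, an F-box protein, had 26.1, 97.4 and 36.6 in the embryonic libraries, and Ssr3, of the translocon-associated complex, 3.16, 13.8 and 6.00. Cybb, the catalytic subunit of the phagocyte oxidase, was listed from e18.5 on with 10.5, 4.24 and 3.86. The CDS site of Usp14, a deubiquitinase of the proteasome, is a near copy. At e12.5 Top2a, the topoisomerase of dividing cells, had 15.4 and was among the top 3 of the 3′UTR sites of miR-142a-5p by scaled reads, and in adult liver the hepatocyte serpin Serpina3k was highest with 3.82.

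The lists of pathway genes were then counted, 7 in all, drawn up around pathways linked with miR-142 and so not independent of its known targets. Of 31 actin cytoskeleton genes with a 3′UTR entry, 11 (35.5%) had a 3′UTR site of miR-142a-3p, against 5.75% of all genes. Of these 6 were in at least 2 libraries: the actin nucleation factor Wasl, the monomer-binding protein Twf1, the GTPase regulators Arhgap35 and Arhgef12, the integrin Itgav and the adaptor Crk. Crk had 15.1, 43.6, 49.1 and 17.9 up to P7, on a 7mer-m8 at chr11:75704029-75704035, and Wasl 9.61, 2.54, 22.1 and 2.12, and neither was listed in adult liver. Arhgef12 (3.86) and Itgav (1.89) were listed there, both on 8mers. The shared match of these sites is seen in Crk, ctgaggattctgagaACACTACt, and Arhgef12, gtgttccgacctcagACACTACA.

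In 3′UTRs the other lists had smaller shares of genes with a miR-142a-3p site. Of 15 genes of endocytosis and membrane traffic 4 (26.7%) had a miR-142a-3p 3′UTR site, with Picalm, a clathrin adaptor, at 15, 65.2, 9.07 and 9.58 up to P7. Of 30 blood transcription and chromatin regulators 4 (13.3%) had one, Gfi1, Kmt2a, Ash1l and Aff1, each in at least 2 libraries. In the CDS of that list there were 8 of 30 (26.7%), against 8.45% of all genes, namely Runx1, Gata1, Spi1, Klf1, Ikzf1, Ash1l, Aff1 and Bach1. Of the other lists, cAMP signalling had a CDS site in 3 of 10 genes, Adcy7, Adcy6 and Prkar1a, all in at least 2 libraries. TGF-beta and cytokine signalling had 4 of 23 (17.4%), Smad2, Socs3, Map3k7 and Epor, and the actin cytoskeleton 4 of 32. The clock and the endocytosis list had 1 of 15 each, and oxidative stress had 0 of 11. Of 14 clock genes only Arntl, the partner of CLOCK, had a 3′UTR site, a conserved 8mer with 3.43, 1.82 and 1.23 in the embryonic libraries. There were 2 of 23 for TGF-beta and cytokine signalling, Tgfbr2 and the cytokine receptor subunit Il6st, 1 of 10 for cAMP signalling (Adcy7) and 1 of 10 for oxidative stress (Gpx1). For miR-142a-5p, against 2.41% of all genes, a 3′UTR site was found in 2 of 10 genes of cAMP signalling (Adcy7 and Prkar1a), 2 of 15 of endocytosis (Rab7 and Clint1), 2 of 23 of TGF-beta and cytokine signalling (Tgfbr1 and Irak1), 2 of 31 of the actin cytoskeleton (Rhoa and Itgb1) and 1 of 30 blood regulators (Tal1), and in none of the clock and oxidative stress genes. The site of Rhoa held 8 and 12 reads in 2 libraries and has 2 intergenic look-alikes, both with an equal read number. The share of a list with a site grows with the length and expression of its genes, which were not matched, so these counts call nothing particular to a list.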

How the data were processed

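Ago HITS-CLIP tables of miRNA-target interactions from mouse liver, 1 per stage, were used. Per the methods the authors preprocessed reads with the FASTX-Toolkit, mapped them with Bowtie to the mouse genome and to miRNA precursors, joined overlapping reads into clusters and searched these for seeds. The submitters' processing notes name Bowtie, mm9 and mm10, with no versions, and the coordinates here fit mm10 (GRCm38). The deposited read number of a site or cluster is a signal, whole and unscaled, with a lowest value of 5. The deposited conservation score runs from 0 to 1, and the deposited free energy is a score as well. The number in the name of an interaction was read as the miRNA's count of reads, and the highest was used where a miRNA has several copies.

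Overlapping clusters of the 2 lists of an embryonic table were joined, and a cluster with a site was counted once per arm and region. The highest read numbers of the 2 lists were added for such a cluster. Depth was 7781484 to 25546696 miRNA reads and 76948 to 208193 clusters per library. Clusters at miRNA genes held 50.4% to 79.9% of the summed cluster reads. Site reads were given per 1000000 of these sums. Shares have Wilson 95% intervals. Fisher's exact tests compared libraries, with Benjamini-Hochberg adjustment over 16 comparisons and a threshold of 0.05. Log2 changes used 1 per 1000000 added to abundance and 0.5 added to cluster counts. Near copies were found with edlib 1.3.9.post1 within 30 bases of a site, and look-alike sites as sites of the same arm within 6 edits over the site and 25 bases to each side. Python 3.11.15, numpy 2.4.6, pandas 2.3.3, scipy 1.17.1, statsmodels 0.14.6, pysam 0.24.0, samtools 1.23.1 and matplotlib 3.10.9 were used, and the computations were tested on simulated data.

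The members, the gene lists and the tests were chosen with earlier results of these data known. Genes were named by the number of libraries with a site and, among equals, by mean scaled reads (10 and 6 genes for 3′UTR and CDS sites of miR-142a-3p, 8 and 5 for miR-142a-5p), with the 3 of most reads at e12.5 and in the adult, and list members in at least 2 libraries, apart from items that are not reported here. The alternatives, given in the closing section, concerned miRNA copies, lists, seed length, reads per cluster, genes in place of clusters, conservation and scaling. The comparison of longer sites with 6mers, the limits for near copies and the removal of clusters at miRNA genes from the total were chosen after the data were seen.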

Additional observations from a re-analysis of the deposited data

Results flagged for a closer look

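The hairpin of miR-142 lies opposite another listed gene, Mir142b, on the minus strand of chromosome 11, and it entered the comparisons above only as 1 of the 629 to 148 sites of miR-142a-5p and as 1 of the 2 near copies at the hairpin. A 7mer-m8 for miR-142a-5p is listed there at chr11:87756868-87756874, with read numbers of 168, 83, 30, 41 and 106 in the libraries from e12.5 to adult liver. As the tables list no read number below 5, any listed site exceeds the 3 reads that a count of 0 allows, so this comparison carries no information, and there are no control samples to set against the values. The number listed for miR-142b itself was 9 at P7, above that limit, and 2, 0, 0 and 2 in the other libraries, within it. The reads at the site are few beside the 105674, 44581, 34373, 55828 and 17420 listed at miR-142a-5p on the opposite strand, and where they come from was not tested.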

How the results depend on the processing

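No paired analysis was possible because each stage has 1 library. The log2 change of abundance, adult over e12.5, was -3.32 for miR-142a-3p and -2.85 for miR-142a-5p with the copies of a miRNA summed, and -2.31 and -1.84 without the 9 other miRNAs that were among the 5 most abundant in any library. For miR-142a-5p it was -2.32 and -2.46 with the first or second list alone. Counting genes with a site in place of clusters turned 5 of the 16 site shares to lower values past the threshold, with log2 odds ratios of -0.43 (e15.5) and -0.42 (e18.5) for miR-142a-3p in 3′UTRs, -0.39 (e15.5) and -0.62 (e18.5) for it in CDS, and -0.66 (e18.5) for miR-142a-5p in 3′UTRs. The count of lower shares went from 8 to 15 and that of higher shares from 2 to 0, and the latter was also 0 for sites of at least 7 matched bases and 3 with clusters of at least 10 reads or the first list. These genes are counted against tables of unequal size. Of the other calls, the P7 share of miR-142a-3p in 3′UTRs missed the threshold with clusters of at least 10 reads and with the first list, that of miR-142a-5p with sites of at least 7 matched bases and with the first list, and the e15.5 CDS share of miR-142a-3p with the second list. Calls gained were the e18.5 CDS share of miR-142a-3p (0.27 with clusters of at least 10 reads, 0.33 with the second list), the e15.5 3′UTR share of miR-142a-5p (1.01 with the first list), and the CDS shares of miR-142a-5p at e18.5 (-1.13 with clusters of at least 10 reads, -1.39 with the first list, -1.33 for genes) and e15.5 (-0.76 for genes). The 4 comparisons of adult liver kept their direction and call under all alternatives run.

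With sites of at least 7 matched bases, CDS genes of miR-142a-3p numbered 649 over the libraries and 330 in at least 2. For miR-142a-5p there were 161 and 39 3′UTR genes and 97 and 37 CDS genes. With the first list alone, 3′UTR genes numbered 415 for miR-142a-3p and 146 for miR-142a-5p, whose CDS genes numbered 95. The lists were unequal in size, with 120 and 402 3′UTR sites of miR-142a-3p at e12.5 and 40 and 214 at e15.5. In the first and second list its e15.5 CDS share was 2.37% and 1.54%. The e18.5 CDS share of miR-142a-5p was 0.0656% and 0.179%. The share of conserved 3′UTR sites at e12.5 was 44.3% and 45.7% with a score of at least 0.9. The change of the longer CDS sites of miR-142a-3p was -1.76 with the first list alone. Near copies of miR-142a-5p, 21.7% of its distinct sites over the libraries, were 2.64% within 3 edits and 41.5% within 7, a limit short of the main peak of edits.

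Scaling decided the direction of the 3′UTR cluster reads from e12.5 to adult liver. The log2 change of the 3′UTR median was -0.08 for miR-142a-3p and 0.18 for miR-142a-5p, but 0.23 and 0.48 with the library totals of the study, -0.93 and -0.67 unscaled, and 1.13 and 1.39 without clusters at miRNA genes. The CDS median ran from -1.12 to 0.94 over these scalings for miR-142a-3p and from 0.02 to 2.08, never negative, for miR-142a-5p. With the study's totals and without those clusters, marker sums changed by -5.07 and -4.16 (erythroid), -0.27 and 0.64 (leukocyte), -1.37 and -0.46 (megakaryocyte), 3.43 and 4.33 (hepatocyte), 3.56 and 4.46 (endothelial) and 0.98 and 1.88 (stellate and biliary). The sum of leukocyte markers, -0.57 with the scaling used above, thus has no settled direction.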
